A study of Mus musculus with 16 samples.

Results

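Transcripts of 10 genes that process small RNAs or act in germline RNA silencing were followed in wildtype (WT) and Psma7 cKO mouse oocytes before and after maturation. The genes were Drosha, Dgcr8, Xpo5, Dicer1, Tarbp2, Ago2, Piwil2, Mael, Ddx4 and Tdrkh, taken by gene name from an expression table of 28618 entries for 27987 gene names. All 10 were listed, in 12 entries, because Dgcr8 had 3. The table covered 16 libraries, with 4 biological replicates each of WT and Psma7 cKO oocytes at the germinal vesicle (GV) stage and of eggs at metaphase II (MII). In the Psma7 cKO, an alpha-ring subunit of the proteasome core was deleted with Cre under the Zp3 promoter, which is active only in growing oocytes, in females carrying floxed Psma7 alleles (Psma7 fl/fl;Zp3-Cre).

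Females of both genotypes were 3 to 4 weeks old and received 5 IU of pregnant mare serum gonadotropin. GV oocytes were taken 44 h later. Ovulated MII eggs were collected from the oviduct 14 to 16 h after hCG and freed of cumulus cells with 0.3% hyaluronidase, so eggs had also seen hCG and the enzyme. The study reports that some ovulated Psma7 cKO oocytes did not extrude the first polar body or stayed at the GV stage. Every egg pool is labelled MII, and the part of such oocytes in the egg values was not tested. The labels give 5 oocytes in each pool, and the study's methods give a larger pool. A pool was the replicate, and since nothing names the females behind each pool, the p-values measure only the spread between these pools.

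Small RNA pathways share a common plan in which a short guide RNA directs an Argonaute protein to matching transcripts. For microRNAs, the nuclease DROSHA and its RNA-binding partner DGCR8 cut the primary transcript, XPO5 exports the hairpin, and DICER1 with TARBP2 trims it and loads it into AGO proteins, of which AGO2 can slice its target. Mouse oocytes also use DICER1 and AGO2 for endogenous siRNAs made from long double-stranded RNA, without DROSHA or DGCR8, and microRNA activity is low in them. PIWIL2, MAEL, TDRKH and the RNA helicase DDX4 (mouse VASA homologue) belong to the piRNA pathway and its germ granules, which in mice are needed above all in the male germline. The oocyte makes a short DICER1 isoform from an internal promoter, but the table has a single Dicer1 entry in which isoforms are not separated.

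Psma7 itself was checked first. It measured 154, 142, 201 and 164 FPKM (fragments per kilobase of transcript, scaled to the size of the library) in the 4 WT GV libraries and 14.5, 14.7, 11.1 and 17.98 FPKM in Psma7 cKO GV oocytes. In eggs it measured 118, 116, 97.7 and 172 FPKM in WT and 13.6, 50.3, 34.98 and 59.9 FPKM in Psma7 cKO. The genotypes did not overlap at either stage, and the log2 fold change was -3.51 in GV oocytes and -1.83 in eggs (limma, Benjamini-Hochberg adjusted p = 8.98e-07 and 0.0359). The egg value lost its call when any WT egg library or Psma7 cKO egg replicate 3 was left out (adjusted p up to 0.101 among these fits, log2 fold changes from -2.10 to -1.38 over all 8), and with replicate numbers as a block (adjusted p = 0.0515), with no filter on low entries (0.122) or with a floor of 0.1 FPKM and no filter (0.156).

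FPKM is a share of a library, not an amount per oocyte, and the table holds 0 entries of the spiked-in ERCC RNA. In such pools, fewer cells with a transcript and less of it per cell cannot be told apart. Depth, read from the steps between low values, was 10.55 to 15.65 M fragments, and replicates of a group correlated at 0.965 to 0.992. Each of the 10 oocyte markers reached 1 FPKM in every group mean. Of 12 granulosa and cumulus markers, Cyp19a1 and Kitl alone reached a mean of 1 FPKM, and Foxl2, Tnfaip6, Ptx3, Amh or Fshr were listed at 0 in at least 1 group. Their summed level was 12.1 to 14.2 FPKM in WT and 14.6 to 17.5 FPKM in Psma7 cKO GV oocytes (two-sided exact permutation p = 0.0286, the smallest that 70 arrangements allow), against 17.2 to 21.1 and 18.9 to 20.9 FPKM in eggs (exact p = 0.657). The part of these markers in the GV values below was not tested.

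The 4 Psma7 cKO egg libraries differed in how much they held of transcripts that fall in WT, and replicate 3 held the most. Among 395 entries whose WT level was more than 10-fold lower in eggs than in GV oocytes (the 10 genes left out), the summed FPKM in the 4 Psma7 cKO egg libraries was 12.6%, 8.80%, 34.4% and 19.0% of the Psma7 cKO GV mean. In WT eggs, whose own values chose this set, it was 5.93% to 6.80% of the WT GV mean. Without Psma7 cKO egg replicate 3, calls over all entries between egg genotypes went from 620 to 287 higher and from 141 to 30 lower. Such a drop was not particular to replicate 3. Higher calls were fewer still without WT egg replicates 1 to 4 (12, 109, 3 and 31) or Psma7 cKO replicate 1 (166). They were 360 without Psma7 cKO replicate 4 and 1024 without replicate 2. Lower calls were 0, 5, 0 and 8 without WT egg replicates 1 to 4. Fitted egg values that Psma7 cKO egg replicate 3 moves are also given without it.

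In WT GV oocytes 3 of the 4 piRNA pathway genes had the highest means, while the other, Piwil2, was ninth of the 10. Tdrkh, which encodes a Tudor-domain partner of PIWI proteins, averaged 31.0 ± 2.25 FPKM (SD, n = 4 here and for each mean below), Ddx4 26.1 ± 6.46 FPKM and Mael 24.2 ± 4.74 FPKM. Dicer1 followed at 19.21 ± 1.12 FPKM, then Xpo5 at 13.5 ± 4.16 FPKM and Tarbp2 at 10.25 ± 0.714 FPKM. Each of these 6 overlapped its neighbour in the order, so their sequence is not fixed by these libraries. Below them, with ranges separate from the gene above, came Drosha at 7.51 ± 0.891 FPKM and Ago2 at 4.52 ± 0.563 FPKM. Piwil2 (1.09 ± 0.261 FPKM) and the main Dgcr8 entry (0.648 ± 0.182 FPKM) were lowest and overlapped each other. The other Dgcr8 entries never passed 0.0309 FPKM.

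**Figure D1:**
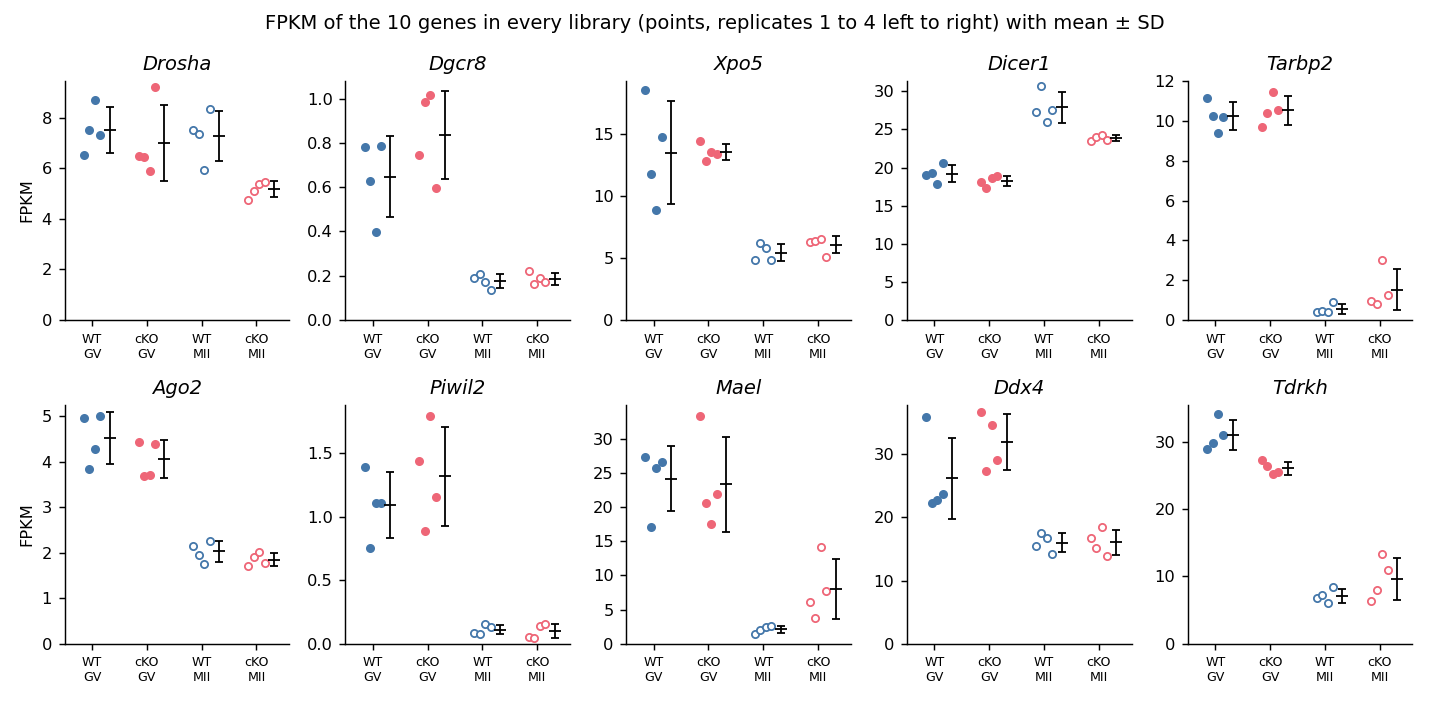
FPKM of each of the 10 genes (vertical axis, linear, its own scale per gene) in WT and Psma7 cKO GV oocytes (filled) and MII eggs (open), with 1 point per library and the mean ± SD beside it. Dicer1 sits higher in eggs than in GV oocytes, Drosha stays near its GV level in WT eggs, and the other 8 genes sit lower in eggs.

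The WT egg had a different order. Dicer1 was highest, at 27.9 ± 1.99 FPKM, with every library above every Ddx4 value (16.0 ± 1.51 FPKM). Drosha (7.28 ± 0.999 FPKM), Tdrkh (7.11 ± 1.01 FPKM) and Xpo5 (5.41 ± 0.676 FPKM) overlapped in turn. Mael (2.12 ± 0.519 FPKM) overlapped Ago2 (2.03 ± 0.225 FPKM), and Tarbp2 stood below both at 0.550 ± 0.247 FPKM. Dgcr8 (0.176 ± 0.0317 FPKM) and Piwil2 (0.112 ± 0.0362 FPKM) were again lowest, at about 10.4 and 7.54 fragments per library. In Psma7 cKO eggs Dicer1 and Ddx4 kept the top places, while Mael (7.97 ± 4.42 FPKM) stood between Tdrkh (9.68 ± 3.14 FPKM) and Xpo5 (6.08 ± 0.681 FPKM), overlapping both.

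Libraries were primed with oligo-dT, and cytoplasmic control of poly(A) tails through motifs in the 3' end is a known feature of maturing oocytes, so 3' ends are shown for Dicer1, which rose, for Mael and Drosha, which were called between genotypes in eggs, and for Tarbp2, Piwil2 and Tdrkh, which with Mael had the largest ratios of WT GV oocytes to eggs. They come from GENCODE M21 on GRCm38 and are printed 5' to 3' on the transcript strand, with the polyadenylation signal (AATAAA or ATTAAA) and any cytoplasmic polyadenylation element (TTTTAT or TTTTAAT) in capitals. Each lies in the annotated 3' UTR of the last exon.
Dicer1 (chr12:104687753-104687782, minus strand): tctTTTTAATaattgtagtcAATAAAgtta
Drosha (chr15:12935217-12935246, plus strand): tgtgcccattgaAATAAAactcaaaccaca
Tarbp2 (chr15:102523633-102523662, plus strand): gagggtataaggAATAAAcatggtgagctt
Piwil2 (chr14:70372482-70372511, minus strand): cctgtggtgtaaAATAAAaacaatgtatgt
Mael (chr1:166201394-166201423, minus strand): actatttcatagATTAAAagtaattgtggt
Tdrkh (chr3:94434638-94434667, plus strand): ctgaaactggaaAATAAAaagttgctaaag
Of these 6 windows, the Dicer1 window alone holds both motifs. Ago2 and Ddx4, whose ends are not printed, carry both motifs within their last 100 bases as well, and both fell in maturation. Mael alone of the 6 carries the ATTAAA form of the signal.

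Over the last 100 transcript bases, read on the transcript strand only, a polyadenylation signal was found in 8 of the 10 genes (not Dgcr8 or Xpo5), against 78.43% of 19259 protein-coding transcripts. The cytoplasmic element was found in 3, Dicer1, Ago2 and Ddx4, against 17.79% of all transcripts. The Pumilio-type motif TGTANATA was found in 0 of the 10 and in 4.341% of all transcripts. The longest transcript used was that of Ago2 (13800 bases, of which 11064 are 3' UTR), and the shortest were those of Tarbp2 (1523 bases) and Mael (1546 bases). A match is a description of letters and not evidence of use.

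The libraries do not keep strand. Tdrkh shares up to 2255 exon bases with Oaz3 on the other strand (Oaz3 averaged 2.74 FPKM in WT GV oocytes and 0.508 FPKM in WT eggs). Dgcr8 shares up to 825 with Trmt2a (3.46 and 0.293 FPKM), and Ago2 up to 219 with Chrac1 (0.473 and 0.0668 FPKM). Reads in those stretches cannot be told apart. The level of Trmt2a was above that of Dgcr8 itself in both groups.

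In WT oocytes most of these transcripts fell during maturation as a share of the library, and Dicer1 rose. Of the 8 genes whose mean over these 8 libraries reached 1 FPKM, 6 fell, 1 rose and 1 did not pass the test (limma on log2 FPKM with values below 1 set to 1, adjusted p under 0.05). Over all 10475 entries tested, 52.4% fell, 26.1% rose and 78.5% did either. By the ratio of means with values below 1 FPKM set to 1, 3 of the 10 genes (Mael, Tarbp2 and Tdrkh) were more than 3-fold lower, beside 8.09% of all entries, and 0 more than 3-fold higher, beside 0.391%. The 8.09% was 2315 of all 28618 entries, and most of the 28618 were too low to pass after the floor. Only 10475 reached a mean of 1 FPKM. The median log2 change was -1.21 for the 8 genes and -0.44 for all entries. Dgcr8 and Piwil2 were under the 1 FPKM limit and are treated separately below. Dividing libraries by their median ratio to a common reference shifted maturation values upwards, by a median over entries of 0.23 in WT and 0.20 in Psma7 cKO (log2 scale).

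Mael and Tarbp2 fell furthest. Mael, whose protein protects the germline from transposons, measured 27.3, 17.1, 25.7 and 26.5 FPKM in WT GV oocytes and 1.41, 2.08, 2.39 and 2.60 FPKM in WT eggs. The egg mean was 8.78% of the GV mean, an 11.4-fold difference, and the log2 fold change was -3.52 (SE 0.21, limma adjusted p = 7.21e-08). Tarbp2, which encodes the double-stranded RNA-binding partner of DICER1, went from 11.2, 10.2, 9.41 and 10.2 FPKM to 0.408, 0.449, 0.423 and 0.919 FPKM. The egg mean was 5.36% of the GV mean, or 18.6-fold lower, with about 11.5 fragments per egg library. Its fitted log2 fold change of -3.35 (SE 0.11, adjusted p = 1.39e-09) is bounded by the floor of 1 FPKM, since all 4 eggs lay below it.

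Tdrkh, Xpo5, Ago2 and Ddx4 fell by less. Tdrkh read 29.0, 29.9, 34.1 and 31.1 FPKM in WT GV oocytes and 6.77, 7.20, 6.04 and 8.44 FPKM in eggs, a log2 fold change of -2.13 (SE 0.12, adjusted p = 3.43e-08). Xpo5, the export receptor for precursor hairpins, read 18.6, 11.7, 8.86 and 14.8 FPKM and then 4.84, 6.18, 5.78 and 4.85 FPKM (-1.27, SE 0.21, adjusted p = 0.000178). For both genes the lowest GV library was above the highest egg library. Ago2 went from 4.97, 3.85, 4.27 and 5.01 FPKM to 2.16, 1.95, 1.76 and 2.27 FPKM (-1.15, SE 0.14, adjusted p = 2.05e-05). Ddx4 went from 35.8, 22.3, 22.7 and 23.7 FPKM to 15.4, 17.6, 16.8 and 14.1 FPKM (-0.69, SE 0.15, adjusted p = 0.00167). These groups did not overlap either, although WT GV replicate 1 of Ddx4 lay well above its 3 partners.

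Dicer1 moved the other way. It measured 19.06, 19.3, 17.9 and 20.6 FPKM in WT GV oocytes and 27.3, 30.7, 26.0 and 27.6 FPKM in WT eggs, so every egg was above every GV library. The egg mean was 145% of the GV mean and the log2 fold change was 0.54 (SE 0.09, limma adjusted p = 0.000186). Drosha read 6.54, 7.52, 8.69 and 7.30 FPKM in GV oocytes and 7.51, 7.34, 5.92 and 8.33 FPKM in eggs, and the ranges overlapped. Its log2 fold change was -0.05 (95% interval -0.35 to 0.25, adjusted p = 0.751) and turned to 0.18 after median-ratio rescaling.

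Piwil2 and Dgcr8 were low in GV oocytes and near the detection limit in eggs. Piwil2, a PIWI-clade Argonaute, read 1.40, 0.758, 1.11 and 1.11 FPKM in WT GV oocytes and 0.0885, 0.0748, 0.153 and 0.130 FPKM in WT eggs, a 9.81-fold difference of means with no overlap. With no floor, the two-sided exact permutation test gave p = 0.0286, the smallest possible. With values below 1 set to 1, the same exact test gave p = 0.143. Dgcr8 read 0.780, 0.630, 0.398 and 0.785 FPKM and then 0.190, 0.208, 0.171 and 0.134 FPKM, 3.69-fold lower with no overlap (exact p = 0.0286 with no floor and 1 with it). In all, 9 of the 10 genes, all but Drosha, had no overlap between WT GV oocytes and eggs, beside 72.7% of the entries tested. The entries tested leave out Piwil2 and Dgcr8.

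In Psma7 cKO maturation, 7 of the same 8 fitted genes fell and 1 rose, against 51.0% and 23.0% of 10748 entries (74.0% in either direction). By the ratio of means with the same floor, 1 of the 10 genes, Tarbp2, was more than 3-fold lower (3, with Mael and Tdrkh, without egg replicate 3), beside 6.44% of all entries, and 0 were more than 3-fold higher, beside 0.321%. The 6.44% was again a share of all 28618 entries (1844 of them), not of the 10748 tested. The median log2 change was -1.14 for the 8 genes and -0.42 for all entries. All 10 genes, including Dgcr8 and Piwil2, had no overlap between stages (68.6% of entries tested, a set without Dgcr8 and Piwil2). Psma7 cKO GV values of Tarbp2 were 9.71, 10.4, 11.4 and 10.6 FPKM and egg values 0.963, 0.830, 3.04 and 1.27 FPKM, a log2 fold change of -2.91 (SE 0.33, adjusted p = 4.28e-05). The egg mean was 14.5% of the GV mean, and 9.69% without egg replicate 3. Mael read 33.4, 20.5, 17.5 and 21.9 FPKM in GV oocytes and 6.17, 3.80, 14.1 and 7.77 FPKM in eggs, a log2 fold change of -1.67 (SE 0.37, adjusted p = 0.00251). Its egg mean was 34.2% of the GV mean, and 25.4% without replicate 3, where the log2 fold change was -1.997 (adjusted p = 0.000165). The highest Mael egg was below the lowest GV library in this genotype as well.

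Tdrkh read 27.3, 26.4, 25.2 and 25.5 FPKM in Psma7 cKO GV oocytes and 6.31, 8.06, 13.4 and 10.9 FPKM in eggs (-1.49, SE 0.21, adjusted p = 0.000176). Without egg replicate 3 its log2 fold change was -1.67. Xpo5 (-1.16, SE 0.11, adjusted p = 2.00e-05), Ago2 (-1.13, SE 0.12, adjusted p = 3.49e-05) and Ddx4 (-0.99, SE 0.13, adjusted p = 0.000119) also fell. Dicer1 rose from 18.04, 17.4, 18.6 and 18.9 FPKM to 23.5, 24.0, 24.3 and 23.6 FPKM, a log2 fold change of 0.39 (SE 0.08, adjusted p = 0.00144). Without egg replicate 3 these 4 genes kept their calls, with log2 fold changes of -1.20 for Xpo5, -1.17 for Ago2, -1.06 for Ddx4 and 0.38 for Dicer1. Drosha, with 6.50, 6.43, 5.88 and 9.23 FPKM in GV oocytes and 4.75, 5.10, 5.39 and 5.45 FPKM in eggs, passed the threshold with a log2 fold change of -0.42 (SE 0.15, adjusted p = 0.0326). That call was lost after median-ratio rescaling (-0.22, adjusted p = 0.229) and without GV replicate 4 (-0.28, adjusted p = 0.0667), egg replicate 1 (adjusted p = 0.0720) or egg replicate 2 (adjusted p = 0.0642). It was also lost with no filter (adjusted p = 0.0762) and with a floor of 0.1 FPKM and no filter (adjusted p = 0.0652). Piwil2 was 13.3-fold lower and Dgcr8 4.50-fold lower in Psma7 cKO eggs than in GV oocytes (exact p = 0.0286 for each with no floor, 0.143 and 1 with it).

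**Figure D2:**
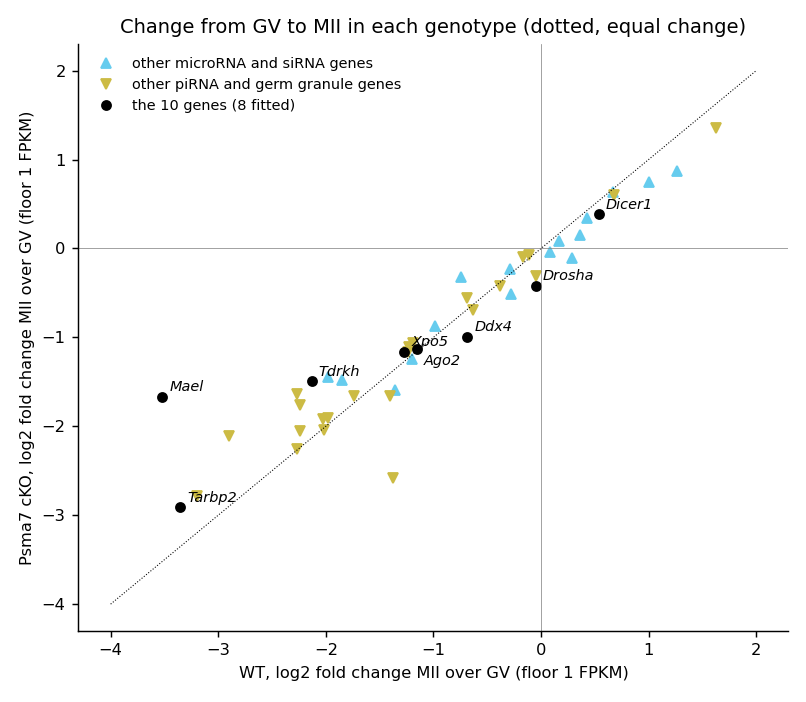
Log2 fold change from GV oocytes to MII eggs in WT (horizontal) and Psma7 cKO (vertical), for the 8 fitted genes (black) and other genes of the microRNA and siRNA (blue) and piRNA (yellow) pathways, with the dotted line marking equal change. Mael lies furthest above the line, at -3.52 in WT and -1.67 in Psma7 cKO, and Dicer1 is the only black point above 0 on both axes.

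In GV oocytes, Psma7 deletion left these genes without a called change. Of 9 fitted genes 0 passed the limma threshold in either direction, beside 0.118% of 11062 entries (0.0994% higher and 0.0181% lower), and 1, Tdrkh, had an unadjusted p under 0.05, beside 10.7% of entries. By floored means 0 of the 10 were past 3-fold, beside 0.0140% of all entries higher and 0.0105% lower. The median log2 difference was -0.07 for the genes and 0.04 for all entries. Tdrkh, from 29.0 to 34.1 FPKM in WT and 25.2 to 27.3 FPKM in Psma7 cKO GV oocytes, was the 1 gene of 10 whose genotypes did not overlap (6.67% of entries tested, a set without Dgcr8). Its mean in Psma7 cKO was 84.2% of WT, with a log2 fold change of -0.25 (95% interval -0.44 to -0.05, unadjusted p = 0.0179, adjusted p = 0.337).

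The intervals bound what could be seen. For Dicer1 the log2 difference was -0.07 (95% interval -0.27 to 0.13) and for Tarbp2 0.04 (-0.20 to 0.27), the narrowest with Tdrkh. Drosha differed by -0.12 (-0.47 to 0.24) and Ago2 by -0.16 (-0.47 to 0.16). Wider intervals went with Xpo5 (0.06, -0.37 to 0.49), Ddx4 (0.31, -0.05 to 0.66), Mael (-0.07, -0.53 to 0.38) and Piwil2 (0.20, -0.25 to 0.65). Their adjusted p-values lay between 0.543 and 0.943. Dgcr8, below the fit's limit, read 0.744, 0.984, 1.01 and 0.596 FPKM in Psma7 cKO GV oocytes, overlapping WT (exact p = 0.314 with no floor).

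**Figure D3:**
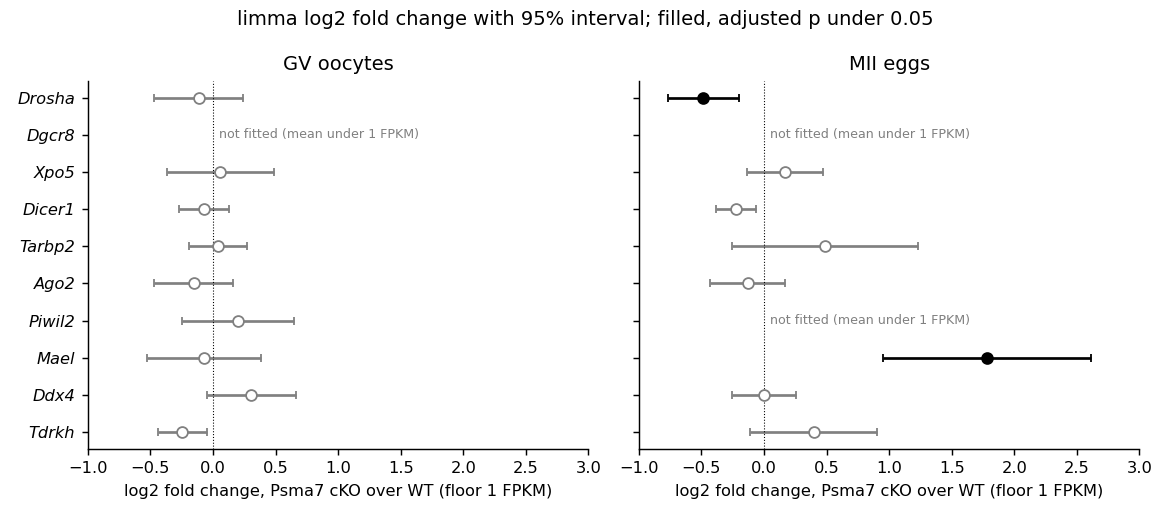
Log2 fold change of Psma7 cKO over WT with its 95% interval for each gene in GV oocytes (left) and MII eggs (right), filled where the limma adjusted p is under 0.05. All points are open in GV oocytes, while in eggs Mael at 1.78 and Drosha at -0.48 are filled.

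In eggs, Mael was higher and Drosha lower in Psma7 cKO. Of 8 fitted genes, 1 was higher and 1 lower, beside 6.53% and 1.49% of 9492 entries (8.02% in either direction). No overlap between genotypes was found for 3 of the 10 genes (Mael, Drosha and Dicer1), beside 20.7% of entries tested. The entries tested leave out Dgcr8 and Piwil2. The median log2 difference was 0.08 for the 8 genes and 0.07 for all entries. Both calls depended on the settings, as given with each gene.

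Mael measured 1.41, 2.08, 2.39 and 2.60 FPKM in WT eggs and 6.17, 3.80, 14.1 and 7.77 FPKM in Psma7 cKO eggs. The lowest Psma7 cKO egg was above the highest WT egg, and the ratio of means was 3.76. The log2 fold change was 1.78 (SE 0.37, 95% interval 0.95 to 2.62, limma adjusted p = 0.0319). Without Psma7 cKO replicate 3 it was 1.45 (adjusted p = 0.0337) and the ratio 2.79, while leaving out any WT egg library, Psma7 cKO replicate 1 or replicate 4 took the adjusted p over the threshold (up to 0.0947). With the replicate number as a block the adjusted p was 0.0502. By floored means, Mael was the 1 gene of 10 more than 3-fold higher, beside 0.584% of all entries, and without replicate 3 it was not. The 0.584% was 167 of all 28618 entries, of which only 9492 reached a mean of 1 FPKM in eggs. The number more than 3-fold lower was 0, beside 0.00699% of all entries.

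Across the Psma7 cKO egg libraries, Mael stood in the same order as the summed level of the 395 falling entries. It was 26.5%, 16.3%, 60.6% and 33.3% of its Psma7 cKO GV mean in replicates 1 to 4, where the falling entries were at 12.6%, 8.80%, 34.4% and 19.0%. In WT eggs Mael was at 5.85%, 8.61%, 9.91% and 10.8% and the falling entries at 5.93%, 6.80%, 6.21% and 6.05%. There the order was not the same. Whether the egg value of Mael is part of this wider retention was not tested.

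Tarbp2 and Tdrkh had their highest egg value in the same library but did not pass the test. Tarbp2 was at 0.408, 0.449, 0.423 and 0.919 FPKM in WT eggs and 0.963, 0.830, 3.04 and 1.27 FPKM in Psma7 cKO eggs, so replicate 4 of WT overlapped replicate 2 of Psma7 cKO. Its log2 fold change was 0.49 (95% interval -0.26 to 1.23, adjusted p = 0.353) with the floor and 1.36 (SE 0.50, exact p = 0.0571) without it. The ratio of means was 2.77, and 1.86 without replicate 3. For Tdrkh the log2 fold change was 0.40 (-0.11 to 0.90, adjusted p = 0.270), and 0.22 (adjusted p = 0.533) without replicate 3.

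**Figure D4:**
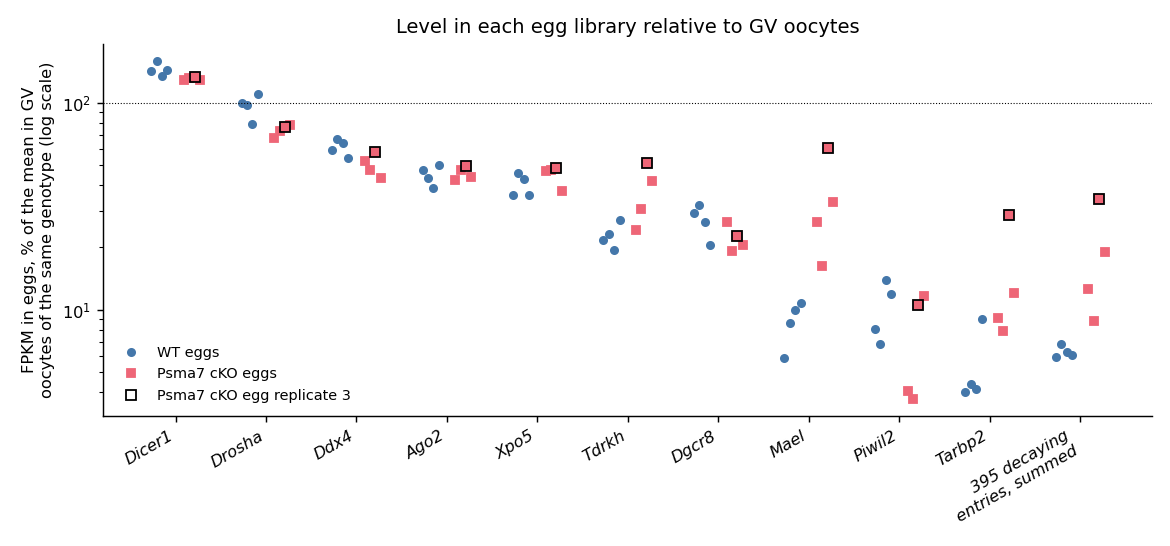
FPKM in each MII egg library as a percentage of the mean in GV oocytes of the same genotype (log scale), for the 10 genes and the sum of 395 entries that fell more than 10-fold in WT, with Psma7 cKO egg replicate 3 outlined. That library holds the highest Psma7 cKO value for the 395 entries (34.4%) and for 7 of the 10 genes, by much in Mael (60.6%), Tdrkh (51.4%) and Tarbp2 (28.9%) and by little in Dicer1 (133%), Xpo5 (48.3%), Ago2 (49.5%) and Ddx4 (57.8%).

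Drosha, the nuclease that starts microRNA processing, measured 7.51, 7.34, 5.92 and 8.33 FPKM in WT eggs and 4.75, 5.10, 5.39 and 5.45 FPKM in Psma7 cKO eggs. The groups did not overlap and the Psma7 cKO mean was 71.1% of WT. The log2 fold change was -0.48 (SE 0.13, 95% interval -0.77 to -0.20, limma adjusted p = 0.0485). The direction held in every fit, but leaving out any of the 8 libraries took the adjusted p over the threshold (0.0576 to 0.132), and with a replicate block it was 0.0944. Without Psma7 cKO replicate 3 the mean was 70.1% of WT by ratio, with a log2 fold change of -0.50 (adjusted p = 0.0800).

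Dicer1 in eggs ranged from 26.0 to 30.7 FPKM in WT and from 23.5 to 24.3 FPKM in Psma7 cKO, again with no overlap, and its mean in Psma7 cKO was 85.5% of WT. The log2 fold change was -0.22 (SE 0.07, 95% interval -0.38 to -0.06, adjusted p = 0.0817). It passed the threshold when all 16 libraries shared a fit (adjusted p = 0.0459) and in no other setting tried, and was -0.23 (adjusted p = 0.137) without Psma7 cKO replicate 3. Unlike Mael, Dicer1 varied little among Psma7 cKO eggs, at 129% to 133% of its GV mean.

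Xpo5 (0.17, 95% interval -0.13 to 0.47), Ago2 (-0.13, -0.43 to 0.17) and Ddx4 (0.00, -0.25 to 0.25) did not pass the test in eggs, with adjusted p-values of 0.429, 0.546 and 0.998. Without Psma7 cKO replicate 3 these values were 0.13, -0.17 and -0.070. Ago2 measured 2.16, 1.95, 1.76 and 2.27 FPKM in WT eggs and 1.71, 1.91, 2.01 and 1.77 FPKM in Psma7 cKO eggs. Piwil2 read 0.0532, 0.0490, 0.139 and 0.154 FPKM and Dgcr8 0.220, 0.161, 0.189 and 0.171 FPKM in Psma7 cKO eggs. Both overlapped WT, with log2 differences of -0.31 (SE 0.50, exact p = 0.629) and 0.09 (SE 0.17, exact p = 0.714) with no floor, at about 6.47 and 10.7 fragments per library.

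The difference between stages was tested as an interaction over all 16 libraries. Of the 8 fitted genes 0 passed in either direction, beside 1.07% of 10615 entries in the positive and 0.188% in the negative direction (1.26% in either). At an unadjusted p under 0.05 they were 2 of 8, beside 17.7% of entries. Mael came nearest, with a genotype difference 1.85 larger in eggs than in GV oocytes on the log2 scale (SE 0.45, 95% interval 0.89 to 2.82, limma adjusted p = 0.0531). It passed when WT GV replicate 2 (adjusted p = 0.0495) or Psma7 cKO egg replicate 2 (adjusted p = 0.00626) was left out, and after median-ratio rescaling (adjusted p = 0.0490), and was 1.53 (adjusted p = 0.0581) without Psma7 cKO egg replicate 3. Tdrkh followed with 0.64 (0.11 to 1.17, adjusted p = 0.183), its genotype values being -0.25 in GV oocytes and 0.40 in eggs, and was at 0.47 without that library. Tarbp2 went from 0.45 to 0.075 without it. For Drosha the interaction was -0.37 (adjusted p = 0.376), so its genotype difference is not shown to differ between the stages.

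The wider pathways were followed with 50 other genes, 20 of the microRNA and siRNA pathways and 30 of the piRNA pathway and germ granules, all listed in the table. In WT maturation 16 and 23 entries of these lists were fitted. Of the microRNA and siRNA entries 5 rose and 7 fell, with a median log2 change of -0.10. Of the piRNA entries 2 rose and 17 fell, with a median of -1.38. The median was -0.44 for all entries tested, of which 26.1% rose and 52.4% fell. With values below 1 FPKM set to 1, the largest falls past the threshold were in Ddx25, a germ-granule helicase (73.5 to 8.03 FPKM, log2 fold change -3.20), Henmt1, which methylates piRNA 3' ends (95.1 to 12.8 FPKM, -2.90), and Fkbp6, a piRNA co-chaperone (10.3 to 2.204 FPKM, -2.27). The floor understates the fall of genes whose eggs lie below it, such as Mov10 (2.70 to 0.130 FPKM), Tex19.2 (2.74 to 0.173 FPKM) and Pnldc1 (4.07 to 0.373 FPKM), named after their values were seen. On the same floored scale the largest rises were in Mybl1, a transcription factor of piRNA precursors in testis (1.26 to 3.88 FPKM, 1.63), Zcchc6, the uridylyltransferase TUT7 (5.07 to 12.1 FPKM, 1.26), and Lin28b, a blocker of let-7 processing (1.38 to 2.75 FPKM, 1.00).

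In Psma7 cKO maturation, of the same 16 and 23 entries, 4 rose and 6 fell, and 2 rose and 18 fell. Of all entries tested, 23.0% rose and 51.0% fell. Between genotypes, 0 of 39 entries passed in GV oocytes, 0 of 34 in eggs and 0 of 39 in the interaction (limma). The shares of all entries tested that passed were 0.118%, 8.02% and 1.26%. At an unadjusted p under 0.05, entries of the lists were 2, 9 and 3, beside 10.7%, 29.4% and 17.7% of all entries tested. The lowest adjusted p in eggs was that of Henmt1, with a log2 fold change of 0.80 (adjusted p = 0.0654).

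The genes most like Dicer1 and Mael over the 16 libraries were found by Pearson's r on log2 FPKM among 10615 entries, a description that rests mostly on the difference between stages. For Dicer1 they were Pcna (r = 0.967), Tnik (0.961) and Jak1 (0.956), all higher in WT eggs than in WT GV oocytes. Pcna averaged 13.5 FPKM in WT GV oocytes, 23.3 FPKM in WT eggs and 18.9 FPKM in Psma7 cKO eggs. For Mael they were Atp6v0c (0.991), Nudcd2 (0.986) and Atp5f1 (0.986). Atp6v0c read 24.4, 14.4, 41.4 and 26.4 FPKM in Psma7 cKO eggs against 6.18 to 9.95 FPKM in WT eggs, with its highest value in replicate 3, as for Mael. These entries were picked by r over the same 16 libraries, so such likeness is built in and is no separate result.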

How the data were processed

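The deposited table holds gene-level FPKM for polyadenylated RNA amplified by Smart-seq2 with oligo-dT priming. The authors made these FPKM values with Cufflinks 2.2.1, and the submitters' processing notes name TopHat2 2.1.1 and mm10. The gene annotation is not given in the sources used here. Values were used as deposited, each entry on its own.

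Groups came from the sample labels. Values below 1 FPKM were set to 1, entries were kept whose mean over the compared libraries reached 1 FPKM, and log2 values were fitted with limma 3.58.1 (R 4.3.3, empirical Bayes with intensity trend) on the 8 libraries compared, or on 16 for the interaction. Benjamini-Hochberg adjustment ran over all entries, with a threshold of 0.05. A fold change of a low gene is understated by the floor. Genes under the limit, and marker sums, were compared by two-sided exact permutation tests (70 arrangements, smallest p 0.0286). Ratios over 3-fold between group means, taken after setting values below 1 FPKM to 1, were also counted. Their shares are over all 28618 entries, and entries under the limit could not pass, so shares among tested entries are higher. The study's methods give the floor and a 3-fold limit, and how replicates were combined is not given in the sources used here. The rest was done in Python 3.11.15 (scipy 1.17.1, pandas 2.3.3, numpy 2.4.6, matplotlib 3.10.9). Depth was estimated from the steps of low FPKM values, of which 28.6% to 32.4% lay within 0.05 of a whole fragment, too few to recover counts. The procedures were tested on simulated data. Gene positions and 3' ends came from GENCODE M21, 1 transcript a gene.

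The 10 genes and the lists were chosen with earlier results of these data known. All 10 genes are named in every comparison. Of the other pathway genes, those past the threshold between genotypes or in the interaction were to be named, with the 3 highest and 3 lowest in WT maturation, and Henmt1 in eggs was named after its value was seen. For the genes with the highest and lowest WT maturation value, the 3 entries with the highest r are named. The settings tried instead were 0.1 FPKM as the floor, 1 FPKM added to each value, no filter, a mean reaching 5 FPKM, median-ratio rescaling, no trend, a replicate block, all 16 libraries in a fit, a 2-fold rule, and each library left out. Entries summed by gene name, a floor of 0.1 FPKM without a filter, and permutation with no floor were added after seeing the data. Replicate numbers of the 2 genotypes or stages were not taken as pairs.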

Additional observations from a re-analysis of the deposited data

Results flagged for a closer look

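In 40 groups of 4 libraries (10 genes, 4 groups each), 4 held a library whose gap to its nearest neighbour took up more of the group's range than the 95% critical value of Dixon's test allows. Chance flags about 1 in 20 groups. Ddx4 in WT GV replicate 1 was at 35.8 FPKM, above its 3 partners, and without it the log2 genotype difference in GV oocytes went from 0.31 to 0.47. Mael in WT GV replicate 2 was at 17.1 FPKM, below the others. Xpo5 in Psma7 cKO egg replicate 4 was at 5.06 FPKM, below the others. Tarbp2 in WT egg replicate 4 was at 0.919 FPKM, above the others, while the remaining 3 WT eggs lay below every Psma7 cKO egg.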

How the results depend on the processing

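Replicate numbers were not treated as pairs, since same-numbered libraries of compared groups correlated at -0.489 to 0.288 in their deviations from the group mean and 1 of 16 correlated best with its own number. With the replicate block, calls over all entries went from 11 higher to 4 in GV oocytes, from 620 higher to 101 and from 141 lower to 7 in eggs, and in the interaction from 114 to 53 positive and 20 to 7 negative. Of the 10 genes, 0 higher and 0 lower remained in eggs under the block, and it changed no other call among them.

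In both maturation comparisons each fitted gene kept its direction in every setting, except Drosha in WT, at 0.18 after rescaling. In eggs the call of Mael went from 1 to 0 with no filter and with a floor of 0.1 FPKM and no filter, and that of Drosha from 1 to 0 in those settings and with no trend, while all 16 libraries in a fit gave 2 lower. Fewer calls with no filter come with more entries tested. Mael's adjusted p was 0.00239 to 0.134 over 18 alternatives, Drosha's 0.0322 to 0.134 and Dicer1's 0.0459 to 0.180. With 1 library left out, 0 to 1 of the 10 genes were higher and 0 lower in eggs, and 0 to 1 positive in the interaction, where Mael also passed with a mean of at least 5 FPKM and after rescaling (1 gene each). Ddx4 in eggs went to -0.068 and the interaction of Ago2 to -0.0051 after rescaling. Values around 0 changed sign with a library left out. These were Ddx4 in eggs (-0.070 to 0.069), Drosha in WT maturation (-0.12 to 0.046), Tarbp2 (-0.0020 to 0.081), Xpo5 (-0.13 to 0.23) and Mael (-0.26 to 0.053) in GV oocytes, and the interactions of Ago2 (-0.043 to 0.10) and Xpo5 (-0.061 to 0.29).

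Counts over all entries moved more. In GV oocytes the 11 higher became 2 with no filter, 5 with a mean of at least 5 FPKM, 5 after rescaling, 18 with no trend, 124 with all 16 libraries in a fit and 4 with a floor of 0.1 FPKM and no filter (3 to 16 with a library left out). The 2 lower became 1, 1, 4 with no trend and 33 with 16 libraries (2 to 4). In eggs the 620 higher became 14 with no filter, 1328 with 16 libraries and 18 with a floor of 0.1 FPKM and no filter (3, without WT replicate 3, to 1024, without Psma7 cKO replicate 2). The 141 lower became 3, 254 and 13 in those settings, 223 after rescaling and 86 with no trend (0, without WT replicate 1 or 3, to 136). Entries lower in maturation with a mean of at least 5 FPKM were 3123 of fewer tested in WT and 3136 in Psma7 cKO. In the interaction the 114 positive became 75 with 1 FPKM added, 22 with no filter, 192 with a mean of at least 5 FPKM and 2 with the low floor and no filter (37 to 605), and the 20 negative became 8, 7 and 1 with 1 FPKM added, no filter and the low floor with no filter (4 to 46).

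By the 3-fold rule, a floor of 0.1 FPKM and a 2-fold limit gave 99 and 45 higher and 57 and 10 lower in GV oocytes, 496 and 565 higher and 46 and 15 lower in eggs, 289 and 802 higher and 4326 and 3685 lower in WT maturation, and 215 and 637 higher and 3531 and 3403 lower in Psma7 cKO maturation. Rescaling gave 2 higher in GV oocytes, 4 lower in eggs, and 264 and 202 higher in WT and Psma7 cKO maturation. Of the 10 genes, 3 were past 3-fold lower in WT maturation (5 with either change) and 1 in Psma7 cKO maturation (3 with the floor, 5 with 2-fold, 1 to 3 with a library left out). With a library left out, 3 to 7 higher and 2 to 4 lower were found in GV oocytes, 62 to 262 higher and 2 to 4 lower in eggs, with 0 to 1 of the 10 genes, the 0 being without Psma7 cKO replicate 3. The follicle marker difference in GV oocytes was 2.47 to 3.44 FPKM with a library left out (exact p = 0.0571 each, the smallest possible there), and in eggs -0.337 to 1.01 FPKM.

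Depth limits Piwil2 and Dgcr8 in eggs, at 6.47 to 10.7 fragments a library, and Tarbp2 in WT eggs at 11.5. The added fit with a floor of 0.1 FPKM and no filter gave log2 changes in WT maturation of -3.17 for Piwil2 and -1.85 for Dgcr8 (limma adjusted p = 7.65e-05 and 0.00146), and of -3.40 and -2.15 in Psma7 cKO (0.000211 and 0.000505).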

Other observations

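Tex19.1 and Tex19.2, neighbouring paralogues on the piRNA and germ granule list that hold back transposons, were chosen here after their values were seen. In GV oocytes their log2 fold changes in Psma7 cKO over WT were 0.60 and 1.20 (limma adjusted p = 0.116 and 0.106), so neither passed the threshold. In GV oocytes the mean of Tex19.1 was 39.9 FPKM with Psma7 present and 60.8 FPKM after its deletion, and that of Tex19.2 was 2.74 and 6.05 FPKM. In eggs every Tex19.2 value was below 1 FPKM, so its interaction with stage is not read here. Paralogues can share reads where their sequences match. How far these paralogues match was not examined, and how such reads were split is not given in the sources used here.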
